A study of Homo sapiens with 16 samples.

Results

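The antisense long non-coding RNAs (lncRNAs) described here are the rows of the deposited table whose symbol ends in -AS1 and whose normalised read count averaged 20 or more over the 16 libraries. They were thus chosen by that mean level, with no use of the targeted or control labels. There were 180 of them, out of 730 rows with that suffix and 57820 rows in all. Another 550 -AS1 rows averaged below 20, 222 of them listed at 0 in every library. The sense partner of each was the row of the gene named before -AS1, used only for comparison. A partner row existed for 179 of the 180, and 158 of those partners also averaged 20 or more.

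An antisense lncRNA is transcribed from the strand opposite a protein-coding gene, either across that gene or away from its promoter, so that both transcripts may start close to each other. Some act on the partner in cis, by transcription through its promoter, by recruiting chromatin regulators or by pairing with its mRNA. Others act elsewhere, or have no known effect on the partner. In T-cell leukaemia the best known non-coding RNAs are tied to NOTCH1 signalling and to T-lineage genes.

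The study targeted lnrCXCR4, a lncRNA, in 3 established human T-cell acute lymphoblastic leukaemia lines. With CRISPR guides delivered by lentivirus there were 2 targeted libraries (guides 1 and 2) and 1 non-targeting guide control in CUTLL1 and again in KOPTK1, and 2 of each in HPB-ALL. With antisense oligonucleotides (ASOs) at 1 uM in the medium there were 2 targeted libraries (ASOs 1 and 2) and 1 scrambled ASO control in CUTLL1, and 2 and 1 in KOPTK1. All cells grew in the same serum medium, and the labels give neither the time after treatment nor whether replicates were separate cultures, so a p-value here speaks of the spread among these libraries, which may be technical. The 10 targeted and 6 control libraries form 5 experiments, and 4 of these rest on a lone control. Titles number the targeted libraries as guides or ASOs 1 and 2, while descriptions call them replicates 1 and 2. Which of these they are is not settled by the labels.

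To show how closely a pair can be laid out, the promoters of 6 pairs are given, from RefSeq on GRCh38.p14. Each spans 250 bases before to 50 after the antisense start and is read 5′ to 3′ on the antisense strand. The 6 were picked by their results, among pairs with overlapping promoters and starts at most 250 bases apart. They had the smallest p of the permutation test below and the largest differences between antisense and sense changes in each direction. Capitals mark the stretch between the antisense start and the sense start. The windows are chr22:42090683-42090982 on the plus strand for NDUFA6-AS1, chr11:65570364-65570663 on the minus strand for SSSCA1-AS1, chr22:50582776-50583075 on the plus strand for CHKB-AS1, chr14:55580043-55580342 on the minus strand for KTN1-AS1, chr5:181260962-181261261 on the plus strand for TRIM52-AS1, and chr4:67701028-67701327 on the plus strand for UBA6-AS1. The first 3 antisense RNAs were higher relative to their sense partner in targeted libraries, and the last 3 were lower.
NDUFA6-AS1: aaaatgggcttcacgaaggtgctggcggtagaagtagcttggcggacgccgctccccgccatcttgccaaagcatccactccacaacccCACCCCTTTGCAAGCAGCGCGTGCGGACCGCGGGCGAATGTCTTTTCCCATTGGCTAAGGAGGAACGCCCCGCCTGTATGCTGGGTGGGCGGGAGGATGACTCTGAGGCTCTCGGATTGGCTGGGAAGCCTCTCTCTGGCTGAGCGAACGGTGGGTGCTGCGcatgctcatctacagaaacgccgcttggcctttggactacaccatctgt
SSSCA1-AS1: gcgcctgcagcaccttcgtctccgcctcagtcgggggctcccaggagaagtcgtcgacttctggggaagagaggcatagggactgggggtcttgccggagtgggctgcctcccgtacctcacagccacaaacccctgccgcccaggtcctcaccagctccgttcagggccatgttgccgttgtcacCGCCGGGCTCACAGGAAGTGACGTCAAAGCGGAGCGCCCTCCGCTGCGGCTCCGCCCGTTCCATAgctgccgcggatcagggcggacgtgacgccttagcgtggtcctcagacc
CHKB-AS1: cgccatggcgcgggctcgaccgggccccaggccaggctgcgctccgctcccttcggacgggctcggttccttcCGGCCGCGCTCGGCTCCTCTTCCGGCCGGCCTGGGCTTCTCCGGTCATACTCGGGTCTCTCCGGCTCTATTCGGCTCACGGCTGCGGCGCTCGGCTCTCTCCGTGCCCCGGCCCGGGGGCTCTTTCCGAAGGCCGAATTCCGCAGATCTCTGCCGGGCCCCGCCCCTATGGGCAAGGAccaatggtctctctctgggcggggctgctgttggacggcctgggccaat
KTN1-AS1: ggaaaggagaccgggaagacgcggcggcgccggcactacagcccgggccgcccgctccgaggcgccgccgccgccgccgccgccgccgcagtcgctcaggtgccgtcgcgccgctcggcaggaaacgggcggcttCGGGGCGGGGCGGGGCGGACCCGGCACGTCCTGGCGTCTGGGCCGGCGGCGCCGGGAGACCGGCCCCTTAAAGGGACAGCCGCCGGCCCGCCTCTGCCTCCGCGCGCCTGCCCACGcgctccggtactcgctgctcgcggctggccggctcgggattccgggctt
TRIM52-AS1: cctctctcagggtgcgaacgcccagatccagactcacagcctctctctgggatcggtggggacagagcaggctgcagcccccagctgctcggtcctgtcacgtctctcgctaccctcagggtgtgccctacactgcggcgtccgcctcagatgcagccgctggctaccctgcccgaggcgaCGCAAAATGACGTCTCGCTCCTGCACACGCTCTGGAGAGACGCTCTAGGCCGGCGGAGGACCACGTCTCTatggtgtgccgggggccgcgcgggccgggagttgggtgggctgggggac
UBA6-AS1: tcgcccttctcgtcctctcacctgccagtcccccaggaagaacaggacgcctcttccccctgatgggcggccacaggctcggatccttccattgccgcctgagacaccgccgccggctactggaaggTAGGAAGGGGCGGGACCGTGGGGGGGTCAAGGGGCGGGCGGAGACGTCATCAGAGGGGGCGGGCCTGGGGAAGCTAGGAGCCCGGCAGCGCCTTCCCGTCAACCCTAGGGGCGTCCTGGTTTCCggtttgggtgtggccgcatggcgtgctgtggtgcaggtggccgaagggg
The starts of these pairs lie 161 (NDUFA6), 64 (SSSCA1), 177 (CHKB), 115 (KTN1), 69 (TRIM52) and 123 bases (UBA6) apart, on opposite strands. Each stretch in capitals is therefore shared upstream sequence of both transcripts.

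Facts of the libraries bear on every count that follows. The libraries held 34547469 to 72178929 recovered reads. The 10 T-cell markers all averaged 20 or more in both arms, with TRAC low in KOPTK1, and their summed normalised count was 69169 to 89236 in targeted and 146779 to 187569 in control libraries. The defining B-cell, myeloid, erythroid and epithelial or fibroblast markers passed 20 for 1 of 5, 0 of 5, 1 of 4 and 2 of 5 genes in targeted libraries, and for 1 of 5, 0 of 5, 1 of 4 and 1 of 5 in control libraries. Mitochondrially encoded genes took 2.46 to 3.25% of counts in targeted and 1.84 to 2.48% in control libraries. No row is named lnrCXCR4, so the target's own level was not analysed here. CXCR4, the chemokine receptor gene, rose slightly, with a log2 fold change of 0.23 (SE 0.054, adjusted p 0.00141 by limma, 16 libraries). The distance between 2 libraries of a line, as a mean chi-square per gene of recovered reads (1 being counting noise), was 2.29 to 14.5 between the guide and ASO libraries of the same arm and 2.49 to 6.75 between replicates, against 168 to 305 between targeted and control libraries. The distances between guide and ASO libraries thus overlapped those between replicates, and none was as low as counting noise. The guide and ASO controls of CUTLL1 were closer (2.29) than any pair of replicates. In bulk RNA, fewer cells of a type and less RNA per cell cannot be told apart.

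The first comparison asks which antisense RNAs changed when lnrCXCR4 was targeted, over all 16 libraries with the experiment as a term. Of the 180, 58 rose and 77 fell (limma on log2(normalised count + 1), adjusted p under 0.05). That is 75.0% called, and 75.0% of all 14020 genes tested were called too, 36.2% up and 38.8% down, so the count of calls is at the background. With quantile scaling the split was 73 up and 54 down. That scaling also moved the median log2 fold change of all genes to 0.07, and the shares of all genes called with it were not counted. Without it, the median log2 fold change was -0.19 for the antisense rows and -0.03 for all genes, and the median size of the change was 0.54 against 0.37. Past 2-fold, 14 antisense rows rose and 29 fell, against 3.67% and 11.4% of all genes. Some rows met the mean of 20 through 1 arm. In 6 rows the control libraries averaged under 20, and 5 of these rose and 0 fell. In 8 rows the targeted libraries did, and 6 of these fell and 0 rose. SPAG5-AS1, IDH1-AS1, DBH-AS1, FOXN3-AS1, MFI2-AS1 and PITRM1-AS1, described below, are among them, and such rows had to differ to be included. The sense partners leaned the other way, with 73 up and 50 down of 158 tested and a median of 0.11. Among antisense rows with a mean under 100, 19 rose and 30 fell of 75, with a median of -0.26, where all 2651 genes at that level had 21.3% up, 34.6% down and a median of -0.15. Among the 105 at 100 or more, 39 rose and 47 fell, with a median of -0.04, against 39.7% up, 39.8% down and -0.00 for the 11369 genes at that level. Their summed share of all counts was 0.204 to 0.243% in targeted and 0.214 to 0.252% in control libraries, and these ranges overlap.

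The values were also compared library by library. Targeted and control values did not overlap in any of the 5 experiments for 112 antisense rows, where 66.8% of all genes met that rule. In all 10 targeted libraries, 48 rows lay above the mean control of their experiment (28.6% of all genes) and 58 lay below it (29.8%). Those 48 and 58 were all called. In the single experiments 26 rows were called up and 28 down in every one, of the 135 that could be tested in all 5 (23.6% and 23.4% of all genes so tested).

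The largest falls were in rows beside genes of unlike function, among them an integrin gene and a hydroxylase gene. ITGB2 encodes the beta-2 integrin chain of leukocytes, through which T cells adhere. With guides, ITGB2-AS1 had 23.9 and 31.3 normalised reads in targeted CUTLL1 libraries against 321 in the control, 27.1 and 29.9 against 323 in KOPTK1, and 14.4 and 13.1 against 123 and 105 in HPB-ALL. With ASOs it had 23 and 18.4 in targeted CUTLL1 libraries against 283 in the control, and 27.2 and 34.9 against 303 in KOPTK1. Every targeted library was far below its controls, and the joint log2 fold change was -3.34 (SE 0.125, adjusted p 2.25e-11). ITGB2 itself had 2662 to 5852 in targeted and 6453 to 12621 in control libraries, and fell by less, with -1.3 (SE 0.057, adjusted p 1.1e-10). The difference between antisense and sense changes was -2.07 (SD 0.402 over the 5 experiments, exact p 0.00206).

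DBH encodes dopamine beta-hydroxylase, which makes noradrenaline. DBH-AS1 had 4.6 to 28.6 normalised reads over the 10 targeted libraries, against 45 to 228 over the 6 controls. Its change was -2.85 (SE 0.167, adjusted p 1.86e-09), while its partner row averaged only 12.1 and was not tested. MFI2 encodes melanotransferrin, an iron-binding surface protein. With guides, MFI2-AS1 had 14.7 and 18.9 normalised reads in targeted CUTLL1 libraries against 182 in the control, 11.1 and 3.45 against 56.2 in KOPTK1, and 20.7 and 23.1 against 126 and 115 in HPB-ALL. In the ASO libraries it had 27 and 21.4 in targeted CUTLL1 libraries against 176 in the control, and 11.4 and 16.1 against 69.1 in KOPTK1. The arms were well apart in each line, and the change was -2.73 (SE 0.212, adjusted p 3.42e-08), against -0.72 (SE 0.092, adjusted p 6.08e-06) for MFI2.

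DLEU7-AS1 fell from very unequal levels in the lines. With guides it had 9.21 and 8.53 normalised reads in targeted CUTLL1 libraries against 73.2 in the control, 0 and 2.3 against 21.3 in KOPTK1, and 197 and 189 against 716 and 707 in HPB-ALL. ASO libraries gave 9.99 and 6.13 in targeted CUTLL1 libraries against 79.5 in the control, and 3.5 and 1.34 against 17.6 in KOPTK1. HPB-ALL was the highest line in both arms, the arms did not overlap in any experiment, and the joint value was -2.74 (SE 0.286, adjusted p 8.14e-07). The sense row DLEU7 was at or near 0 everywhere, averaging 0.5.

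FOXN3 encodes a transcriptional repressor of the forkhead family. FOXN3-AS1 had 8.04 to 17 in targeted and 39.1 to 110 in control libraries, a change of -2.36 (SE 0.189, adjusted p 4.83e-08). FOXN3 did not pass the test, at -0.07 (SE 0.054, adjusted p 0.254). SLC8A1 encodes the sodium and calcium exchanger. SLC8A1-AS1 had 126 and 127 against 550 with guides in CUTLL1, 45.6 and 29.9 against 259 in KOPTK1 and 6.38 and 8.46 against 37 and 18.1 in HPB-ALL, targeted against control, and its change was -2.19 (SE 0.181, adjusted p 6.66e-08). C1RL encodes a complement C1r-like protease. C1RL-AS1 had 53.9 to 258 in targeted and 305 to 703 in control libraries, with -1.96 (SE 0.118, adjusted p 2.43e-09), and C1RL fell alongside it, with -2.37 (SE 0.224, adjusted p 2.78e-07). Their difference did not pass (0.47, SD 0.519 over the 5 experiments, exact p 0.0556). The use of strand in counting is not given in the sources used here, so reads of overlapping antisense and sense transcripts cannot be told apart with certainty in any pair.

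The largest rises were smaller than the largest falls. SPAG5 encodes a protein of the mitotic spindle. With guides, SPAG5-AS1 had 51.6 and 36 normalised reads in targeted CUTLL1 libraries against 15.6 in the control, 17.2 and 16.1 against 2.91 in KOPTK1, and 88.6 and 90.7 against 7.93 and 20 in HPB-ALL. After ASO treatment there were 51 and 50 in targeted CUTLL1 libraries against 6.91 in the control, and 21.9 and 25.5 against 8.48 in KOPTK1. All targeted libraries were above their controls, and the change was 2.14 (SE 0.234, adjusted p 1.29e-06). Its control values did not exceed 20, so the row met the mean of 20 only through its targeted libraries. SPAG5 rose too, by 0.44 (SE 0.021, adjusted p 2.11e-10). JHDM1D encodes a histone lysine demethylase. JHDM1D-AS1 had 63.8 to 301 in targeted and 19 to 64.5 in control libraries. CUTLL1 was highest among targeted libraries, and the change was 1.79 (SE 0.135, adjusted p 2.57e-08), with 0.67 (SE 0.071, adjusted p 8.85e-07) for JHDM1D.

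NDUFA6, a subunit of respiratory complex I, shares the head-to-head promoter printed above with its antisense RNA. With guides, NDUFA6-AS1 had 323 and 315 normalised reads in targeted CUTLL1 libraries against 110 in the control, 429 and 501 against 186 in KOPTK1, and 432 and 397 against 156 and 147 in HPB-ALL. With ASOs it had 347 and 357 in targeted CUTLL1 libraries against 114 in the control, and 519 and 488 against 165 in KOPTK1. The lowest of the 10 targeted values, 315, was above the highest control value, 186. The change was 1.5 (SE 0.059, adjusted p 3.98e-11), against 0.13 (SE 0.046, adjusted p 0.0213) for NDUFA6, and the difference was 1.4 (SD 0.214 over the 5 experiments, exact p 0.00206). CHKB encodes choline kinase beta, which starts phosphatidylcholine synthesis. CHKB-AS1 had 48.3 to 124 in targeted and 13.6 to 68.3 in control libraries, ranges that overlap across lines but not within any experiment. Its change was 1.26 (SE 0.136, adjusted p 1.1e-06), while CHKB did not pass the test, at 0.05 (SE 0.136, adjusted p 0.769).

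Beside A1BG, a plasma glycoprotein gene of the liver, A1BG-AS1 had 922 to 1343 in targeted and 416 to 543 in control libraries. Its change was 1.21 (SE 0.048, adjusted p 3.98e-11), and A1BG, with few reads, gave -0.60 (SE 0.283, adjusted p 0.0714) and did not pass. INTS6 encodes a subunit of the Integrator complex, which processes small nuclear RNAs. INTS6-AS1 had 74.5 to 178 in targeted and 29.1 to 75.2 in control libraries, with 1.18 (SE 0.128, adjusted p 1.13e-06). INTS6 did not pass, at 0.14 (SE 0.089, adjusted p 0.172).

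**Figure D1:**
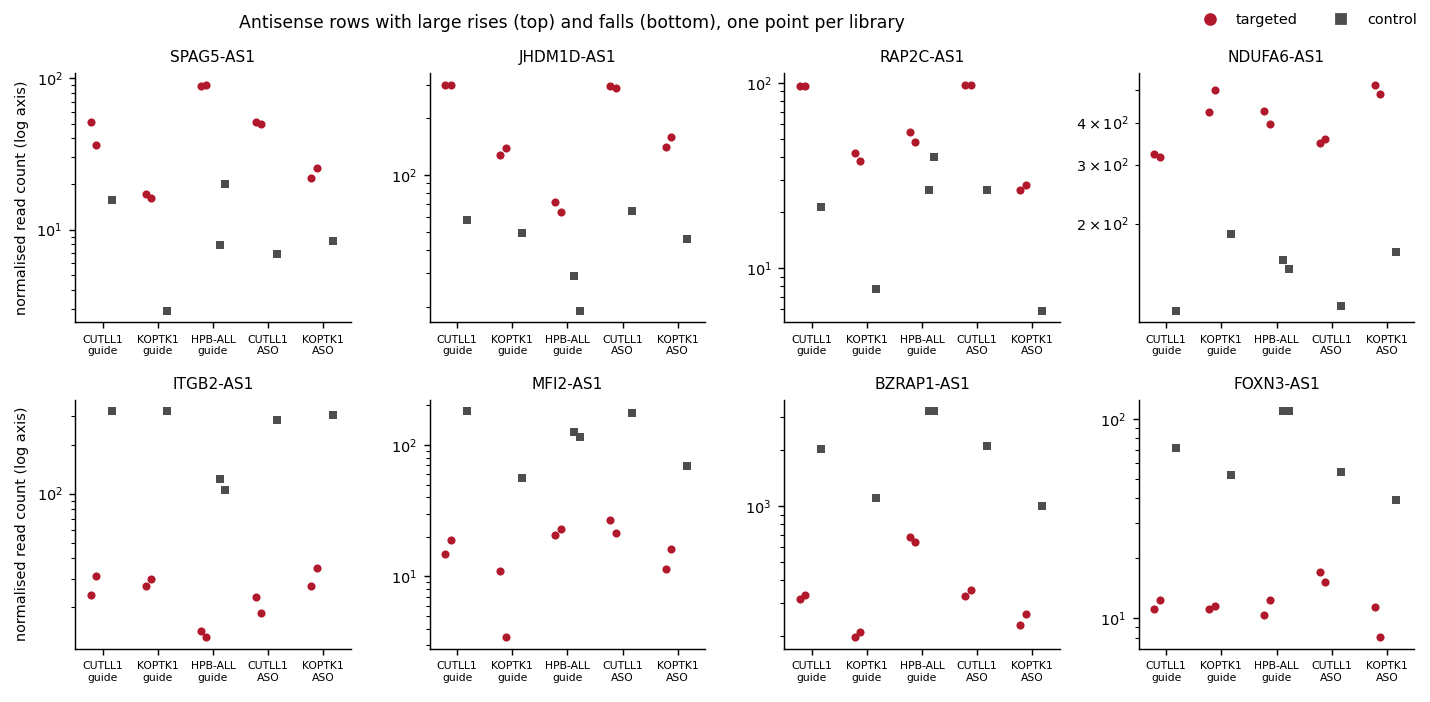
Normalised read counts (log axis) of 8 antisense rows by experiment, 1 point per library, with targeted libraries as red circles left of control libraries as grey squares. The top row holds 4 that rose and the bottom row 4 that fell, and in every experiment the red and grey points are apart.

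Antisense rows beside 6 T-lineage and immune genes all fell. These genes encode the beta-2 integrin (ITGB2), the costimulatory receptor CD27, the T-cell transcription factor LEF1, protein kinase C theta of T-cell receptor signalling (PRKCQ), the IL-17 adaptor TRAF3IP2 and the repressor ZEB1. The 6 antisense rows had a median log2 fold change of -1.10 and the 6 sense genes one of -0.79, and all 6 of each were called down jointly, where 38.8% of all genes were. LEF1 itself was not called with guides (-0.25) or with ASOs (-0.12) taken alone. The list of 6 was drawn up by hand with earlier results of these data known, and was not tested as a set. Partners outside it that might be counted as immune genes went both ways. Jointly, MAP3K14-AS1 and MAP3K14 were called up (0.22 and 0.62), and SOCS2-AS1 and SOCS2 down (-0.63 and -0.89). Taken alone, MAP3K14-AS1 was not called with guides (0.11), SOCS2-AS1 with neither guides (-0.62) nor ASOs (-0.66), and SOCS2 not with ASOs (-0.94). The summed T-cell markers were lower in targeted libraries too, as given above, and their part in these results was not tested.

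Within the group the antisense and sense falls were unequal in both directions. LEF1-AS1 had 114 to 279 in targeted and 312 to 604 in control libraries, without overlap, and fell with -1.29 (SE 0.072, adjusted p 1.05e-09). LEF1 gave -0.20 (SE 0.085, adjusted p 0.0445) and was higher in the targeted than in the control libraries of CUTLL1, with 43308 and 42261 against 36630 with guides. PRKCQ-AS1 had 278 to 536 in targeted and 718 to 1285 in control libraries, with -1.27 (SE 0.068, adjusted p 7.15e-10). PRKCQ fell by much less, with -0.27 (SE 0.024, adjusted p 1.82e-07).

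In the pairs of CD27 and TRAF3IP2 the sense gene fell more. CD27 had 72.8 and 68.2 against 467 with guides in CUTLL1, 12.3 and 10.4 against 77.5 in KOPTK1 and 7.98 and 12.3 against 62.1 and 71.4 in HPB-ALL, targeted against control. CD27-AS1 had 198 and 173 against 457, 472 and 450 against 753 and 294 and 285 against 478 and 548 in the same libraries. The joint changes were -0.92 (SE 0.075, adjusted p 5.83e-08) for CD27-AS1 and -2.68 (SE 0.118, adjusted p 1.13e-10) for CD27. TRAF3IP2 had 14.8 to 196 in targeted and 462 to 658 in control libraries, and TRAF3IP2-AS1 166 to 311 and 322 to 421. The joint changes were -0.68 (SE 0.091, adjusted p 9.47e-06) for TRAF3IP2-AS1 and -3.58 (SE 0.357, adjusted p 4.89e-07) for TRAF3IP2. ZEB1-AS1 had the smallest fall of the group, -0.34 (SE 0.071, adjusted p 0.000622), and lost its call with quantile scaling (-0.15, adjusted p 0.0834).

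By the role of the sense gene, the other groups held calls in both directions, to be read against 36.2% up and 38.8% down of all genes. Antisense rows beside cell cycle and DNA genes had 5 up and 5 down of 13, those beside transcription and chromatin genes 5 and 8 of 17, those beside RNA and translation genes 2 and 5 of 11, and those beside metabolic, mitochondrial and transport genes 12 and 12 of 30. The remaining 103 had 34 up and 41 down. Medians were -0.15, -0.21, -0.23, -0.19 and -0.07 on the log2 scale, against -0.03 for all genes.

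The second comparison asks whether antisense and sense changes differ within a pair, over 158 pairs with both rows at 20 or more. For each pair the targeted-minus-control change of the sense row was subtracted from that of the antisense row, and the libraries were permuted within experiments in all 486 ways, so that the smallest possible two-sided p is 0.00206. Unadjusted p was under 0.05 in 116 pairs, with the antisense lower relative to sense in 69 and higher in 47, and 80 pairs reached the smallest p. The difference had the same sign in all 5 experiments in 107 pairs, 64 with the antisense lower and 43 with it higher. The median difference was -0.20, and 29 pairs were past 2-fold with the antisense lower and 20 with it higher. By joint calls, 51 pairs moved in the same direction, 22 up and 29 down. Another 42 moved in opposite directions, 13 with the antisense up and 29 with it down. The antisense alone was called in 25, the sense alone in 30 and neither in 10. Of all 14020 genes, 75.0% were called, so many pairs of unrelated rows would also share or oppose calls. The same counts were not made for unrelated rows, so none of them is shown to be a trait of antisense and sense pairs. Across the 158 pairs, as a description, the 2 changes had Pearson's r 0.24 and Spearman's rho 0.12 and shared a sign in 81. These pairs come from the same libraries and are not independent.

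**Figure D2:**
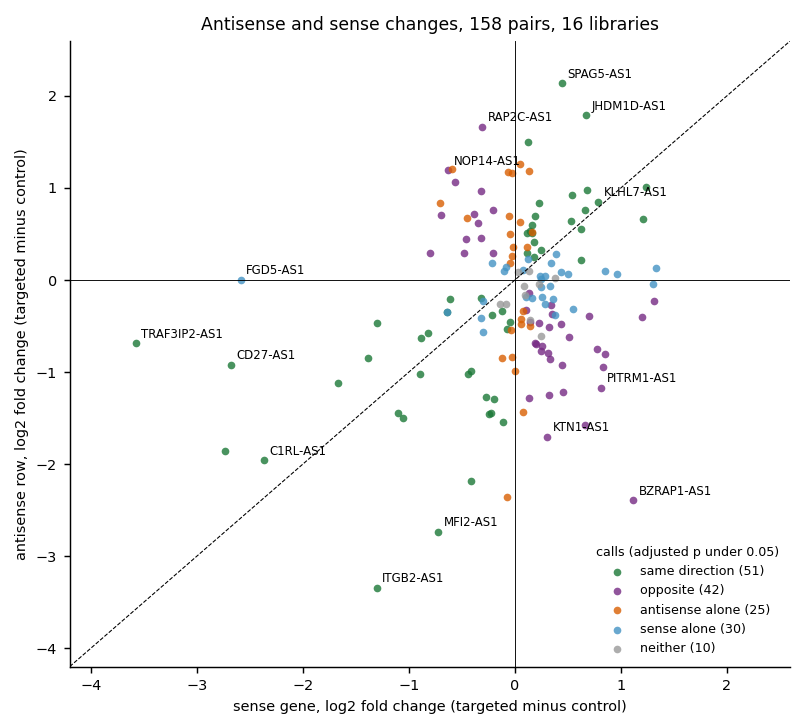
Joint log2 fold change of the antisense row (vertical axis) against that of its sense gene (horizontal axis) for 158 pairs, coloured by which rows were called, with the dashed line marking equal change. Pairs lie on both sides of the line, 42 of them with opposite calls.

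The opposite pair with the widest split was BZRAP1, which encodes a benzodiazepine receptor binding protein. With guides, BZRAP1-AS1 had 316 and 332 normalised reads in targeted CUTLL1 libraries against 2034 in the control, 197 and 211 against 1098 in KOPTK1, and 682 and 643 against 3242 and 3250 in HPB-ALL. In the ASO libraries it had 329 and 352 in targeted CUTLL1 libraries against 2092 in the control, and 230 and 264 against 1003 in KOPTK1. BZRAP1 had 6385 and 6680 against 3932, 5957 and 5867 against 1936 and 3459 and 3385 against 1903 and 1753 in the guide libraries of CUTLL1, KOPTK1 and HPB-ALL, targeted against control. Antisense values were lower and sense values higher in every targeted library. The joint changes were -2.39 (SE 0.073, adjusted p 3.59e-12) and 1.12 (SE 0.121, adjusted p 1.14e-06), and the difference was -3.54 (SD 0.351 over the 5 experiments, exact p 0.00206).

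TNRC6C encodes a GW182 protein of microRNA silencing. TNRC6C-AS1 had 170 and 141 against 207 with guides in CUTLL1, 18.5 and 26.5 against 188 in KOPTK1 and 35.9 and 40.8 against 83.3 and 115 in HPB-ALL, targeted against control. Its fall was called in KOPTK1 (log2 fold change -3.03, adjusted p 1.05e-06 by limma) and not in CUTLL1 (-0.41, adjusted p 0.182), and the lines differed by the F test (adjusted p 0.000548). TNRC6C rose with 0.67 (SE 0.038, adjusted p 1.44e-09), and the joint antisense change was -1.58 (SE 0.328, adjusted p 0.000582).

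KTN1 encodes kinectin, a membrane anchor of the endoplasmic reticulum that binds kinesin. With guides, KTN1-AS1 had 63.5 and 68.2 normalised reads in targeted CUTLL1 libraries against 200 in the control, 44.3 and 44.9 against 194 in KOPTK1, and 65.4 and 74.6 against 237 and 212 in HPB-ALL. ASO libraries gave 78.9 and 68.4 in targeted CUTLL1 libraries against 197 in the control, and 47.3 and 61.7 against 186 in KOPTK1. KTN1 had 13362 to 17756 in targeted and 11398 to 14146 in control libraries. The antisense values were lower everywhere, with -1.7 (SE 0.099, adjusted p 1.77e-09), and KTN1 gave 0.31 (SE 0.04, adjusted p 7.41e-06). PITRM1 encodes a mitochondrial metalloprotease. PITRM1-AS1, a low row, had 4.79 to 26 in targeted and 15.9 to 51.3 in control libraries. It fell with -1.17 (SE 0.164, adjusted p 1.56e-05), while PITRM1 rose with 0.81 (SE 0.029, adjusted p 1.58e-11).

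In the pairs of RAP2C and NOP14 the signs were turned round. RAP2C encodes a Ras-related small GTPase, and NOP14 a protein that builds the small ribosomal subunit. RAP2C-AS1 had 96.7 and 95.7 against 21.5 with guides in CUTLL1, 41.9 and 38 against 7.75 in KOPTK1 and 54.3 and 47.7 against 26.4 and 40 in HPB-ALL, targeted against control. It rose with 1.67 (SE 0.206, adjusted p 4.48e-06), least in HPB-ALL, and RAP2C fell with -0.31 (SE 0.071, adjusted p 0.00138). With guides, NOP14-AS1 had 902 and 895 normalised reads in targeted CUTLL1 libraries against 461 in the control, 916 and 894 against 367 in KOPTK1, and 1253 and 1193 against 556 and 470 in HPB-ALL. NOP14 had 3551 to 6098 in targeted and 5808 to 8579 in control libraries. The joint changes were 1.2 (SE 0.051, adjusted p 8.94e-11) for NOP14-AS1 and -0.63 (SE 0.054, adjusted p 9.18e-08) for NOP14, and the difference was 1.79 (SD 0.263 over the 5 experiments, exact p 0.00206).

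**Figure D3:**
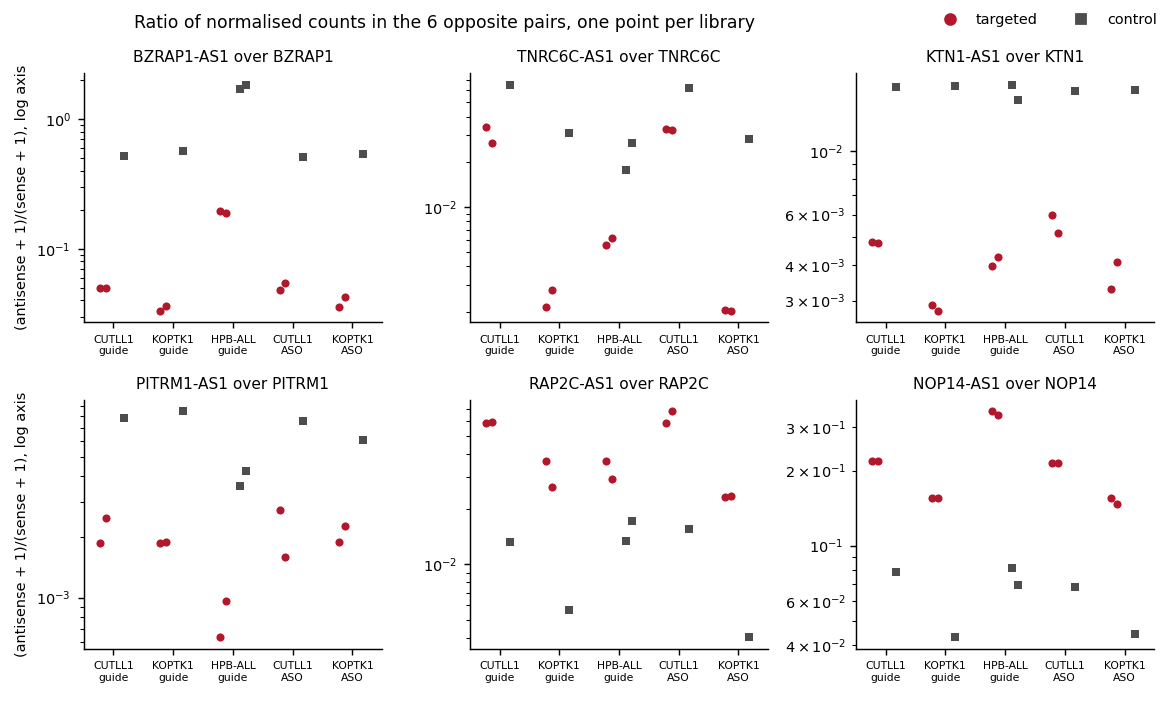
Ratio of antisense to sense normalised count, each plus 1 (log axis), in the 6 pairs with opposite calls and the widest difference, 1 point per library, with targeted libraries as red circles left of control libraries as grey squares. In every experiment the targeted ratios lie below the controls for BZRAP1, TNRC6C, KTN1 and PITRM1, and above them for RAP2C and NOP14.

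Of the pairs called in the same direction, the 6 whose joint fold changes lay closest were rises. By the difference averaged over experiments, 2 pairs called down were about as close, MAPKAPK5 (difference 0.09, joint change -0.20 antisense and -0.32 sense) and ACVR2B (difference -0.10, joint change -1.02 antisense and -0.89 sense). KLHL7 encodes an adaptor of a cullin ubiquitin ligase. KLHL7-AS1 had 61.4 to 200 in targeted and 46.3 to 96.6 in control libraries and KLHL7 had 4266 to 6068 and 2726 to 3067. The changes were 0.85 (SE 0.114, adjusted p 1.02e-05) for KLHL7-AS1 and 0.79 (SE 0.046, adjusted p 1.58e-09) for KLHL7. KDM4A, a histone H3 demethylase, gave 0.62 beside 0.55 for KDM4A-AS1, and IDH1, the cytosolic isocitrate dehydrogenase, gave 0.67 beside 0.76 for IDH1-AS1. ZBTB11, a zinc finger regulator, gave 0.53 beside 0.64 for ZBTB11-AS1, UBL7, a ubiquitin-like protein, 0.24 beside 0.33 for UBL7-AS1, and RPA3, the small subunit of the single-strand DNA binding complex, 0.18 beside 0.25 for RPA3-AS1. All these values are joint log2 fold changes that passed the test. The exact p of the differences ran from 0.191 for ZBTB11 to 0.556 for KDM4A, which does not show that the 2 transcripts moved alike. RPA3-AS1 lost its call when the non-targeting guide library of CUTLL1 was left out (0.18, adjusted p 0.0584) and when the scrambled ASO library of CUTLL1 was (0.20, adjusted p 0.0507).

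The ratio of antisense to sense counts, each plus 1, moved by a median of 5.0-fold between its lowest and highest library, from 1.49-fold to 9220-fold. The steadiest was UBL7, at 0.0913 to 0.136, followed by RPA3, at 0.287 to 0.44, and ZNRD1, a subunit of RNA polymerase I, at 0.196 to 0.337. ZNRD1-AS1 had 458 to 663 in targeted and 520 to 707 in control libraries, with -0.21 (SE 0.057, adjusted p 0.00452). With quantile scaling its sign turned and its call was lost (0.01, adjusted p 0.869 by limma). The widest ranges came from rows that are near 0 in some line. CDKN2B encodes the p15 inhibitor of the cell cycle, at a locus often deleted in T-ALL. CDKN2B-AS1 had 23 and 30.3 against 17.6 with guides in CUTLL1, 2.46 and 1.15 against 13.6 in KOPTK1 and 289 and 295 against 315 and 316 in HPB-ALL, targeted against control. CDKN2B had reads in KOPTK1, 62.8 and 58.7 against 46.5, and 0 to 0.999 in the other lines. Neither passed jointly, at -0.61 (SE 0.4, adjusted p 0.179) and 0.24 (SE 0.199, adjusted p 0.279). ZSCAN16, a zinc finger gene, was at 0 to 0.969 in KOPTK1 and at 768 and 744 against 353 and 405 in HPB-ALL, while ZSCAN16-AS1 stayed at 354 to 635 in targeted and 401 to 688 in control libraries, with -0.04 (SE 0.062, adjusted p 0.552). Quantile scaling turned the sign of ZSCAN16-AS1 too, and there the row was called up (0.21, adjusted p 0.0117 by limma).

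**Figure D4:**
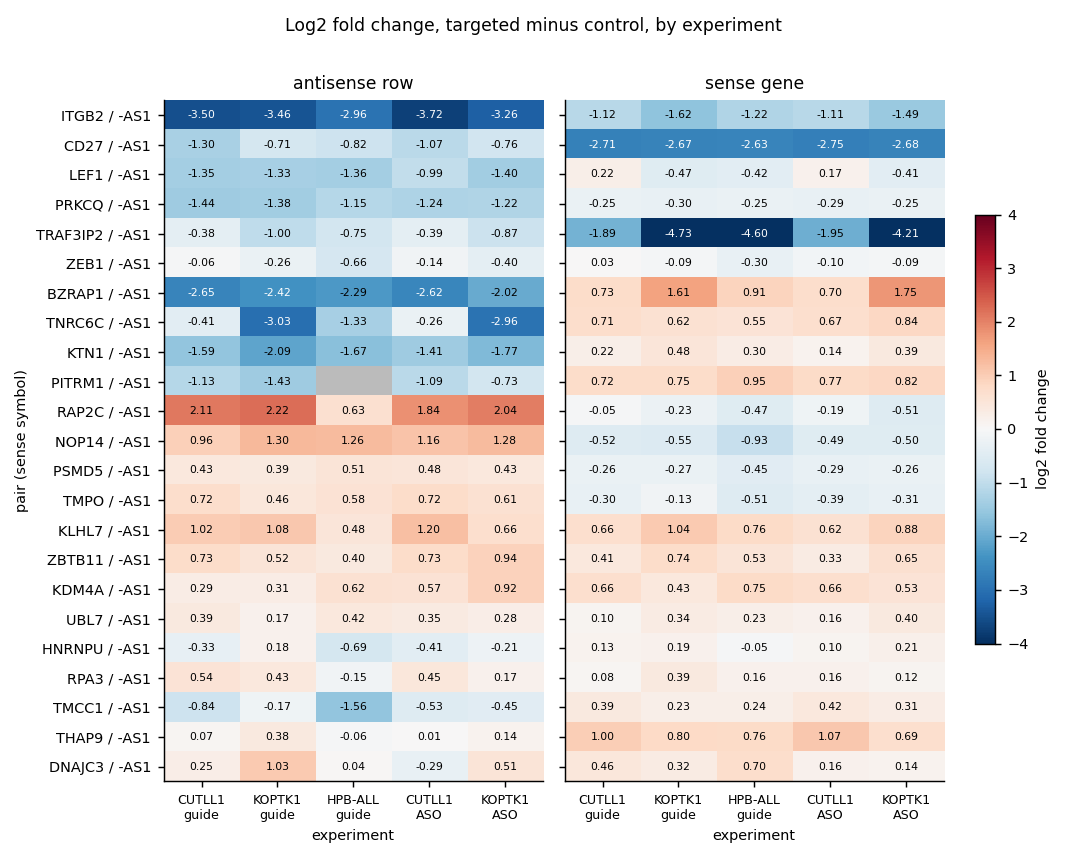
Log2 fold change, targeted minus control, of 23 antisense rows (left) and their sense genes (right) in the 5 experiments, with colours capped at 4 and grey where the row averaged under 20 in that experiment. The antisense blocks of BZRAP1 to PITRM1 are blue where the sense blocks are red, and the 6 T-lineage rows at the top are blue in the antisense block.

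For 21 antisense rows the sense row averaged below 20, and 7 rose, 9 fell and 5 did not pass jointly, a share near the 75.0% of all genes called. ASB16-AS1, named after its values were seen, had 866 to 1583 in targeted and 412 to 622 in control libraries, with 1.17 (SE 0.047, adjusted p 4.82e-11), beside a sense row averaging 4.6. MMP24-AS1, chosen likewise, had 560 to 1974 and 309 to 1036, with 0.91 (SE 0.05, adjusted p 8.75e-10), beside a sense row averaging 3.8. FGD5, a guanine exchange factor gene of endothelium, was at 0 to 2.64 in all libraries of CUTLL1 and HPB-ALL, and at 4.93 and 6.9 against 524 with guides and 6.13 and 0 against 505 with ASOs in KOPTK1, targeted against control. FGD5-AS1 stayed at 7875 and 8496 against 8105 and 7971 and 7724 against 8109 in those KOPTK1 libraries, with a joint change of 0.00 (SE 0.025, adjusted p 0.885).

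Of the 180, 75 averaged 20 to 100 normalised reads, 91 from 100 to 1000 and 14 above 1000. Of these 14, 8 rose, 4 fell and 2 did not pass, from BZRAP1-AS1, among the largest falls at -2.39 (SE 0.073, adjusted p 3.59e-12), to MMP24-AS1 at 0.91 (SE 0.05, adjusted p 8.75e-10). The shares of all genes above 1000 were not counted, so this split has no background. Of all genes at 100 or more, 39.7% rose and 39.8% fell. The 3 with the highest means, C17orf76-AS1, OIP5-AS1 and FGD5-AS1, had log2 fold changes of at most 0.15 in size. C17orf76-AS1, which had no partner row, was at 28454 to 39782 in targeted and 26634 to 35908 in control libraries, with 0.08 (SE 0.023, adjusted p 0.00569), a call lost with quantile scaling (0.02, adjusted p 0.532). OIP5-AS1, a cytoplasmic lncRNA known in vertebrates as cyrano, had 7882 to 12208 in targeted and 9233 to 13630 in control libraries. All 10 of its targeted libraries were below the mean control of their experiment, with -0.15 (SE 0.028, adjusted p 0.000291), while OIP5, a centromere protein, gave 0.14 (SE 0.04, adjusted p 0.007). PSMD5-AS1 beside a proteasome assembly chaperone had 3296 to 4757 in targeted and 2469 to 3422 in control libraries. It rose with 0.45 (SE 0.023, adjusted p 5.03e-10), and PSMD5 fell with -0.32 (SE 0.032, adjusted p 4.95e-07). TMPO-AS1, beside the gene of the nuclear lamina protein thymopoietin, rose with 0.62 (SE 0.034, adjusted p 1.11e-09), and TMPO fell with -0.34 (SE 0.044, adjusted p 5.93e-06). THAP9-AS1 did not pass, at 0.09 (SE 0.047, adjusted p 0.0892), and THAP9, which encodes a domesticated transposase, rose with 0.85 (SE 0.056, adjusted p 6.18e-09).

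The rule's threshold fell among very low rows. Just inside it lay SAP30L-AS1 with a mean of 20.47, GNAS-AS1 with 21.23 and LRP4-AS1 with 23.09, and just outside it ENO1-AS1 with 19.83, SERTAD4-AS1 with 19.68 and RASSF8-AS1 with 19.62. GNAS-AS1 reached that mean through CUTLL1 alone, with 42.4 and 34.1 against 71.2 with guides, targeted against control, and at most 3.08 in the other lines.

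The lines differed in which antisense RNAs they held at all. In control libraries, means of the 3 lines were within 2-fold for 85 of the 180 rows and 10-fold or more apart for 19, with a median of 2.07-fold between the highest and the lowest line. These 19 were named after their values were seen. TP73-AS1, beside the p53 relative TP73, had 521 and 487 in the 2 CUTLL1 controls and 0 in the controls of the other lines. DLX6-AS1, beside a homeobox gene, had 784 and 711 in HPB-ALL and at most 1.3 elsewhere. ZNF667-AS1 had 304 and 336 in HPB-ALL and 0 elsewhere, and RNF144A-AS1 had 659 and 637 in KOPTK1 and at most 2.3 elsewhere. VPS9D1-AS1 was highest in KOPTK1, with 783 and 753, stood at 383 and 438 in CUTLL1, and was near absent from HPB-ALL, with 0 and 0.952. It fell where it had reads, to 392 and 350 with guides in targeted KOPTK1 libraries (log2 fold change -1.08, adjusted p 0.012 by limma). The joint change was -0.44 (SE 0.224, adjusted p 0.0896) and did not pass, but it passed with a pseudocount of 5 and with edgeR and DESeq2 on recovered reads.

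**Figure D5:**
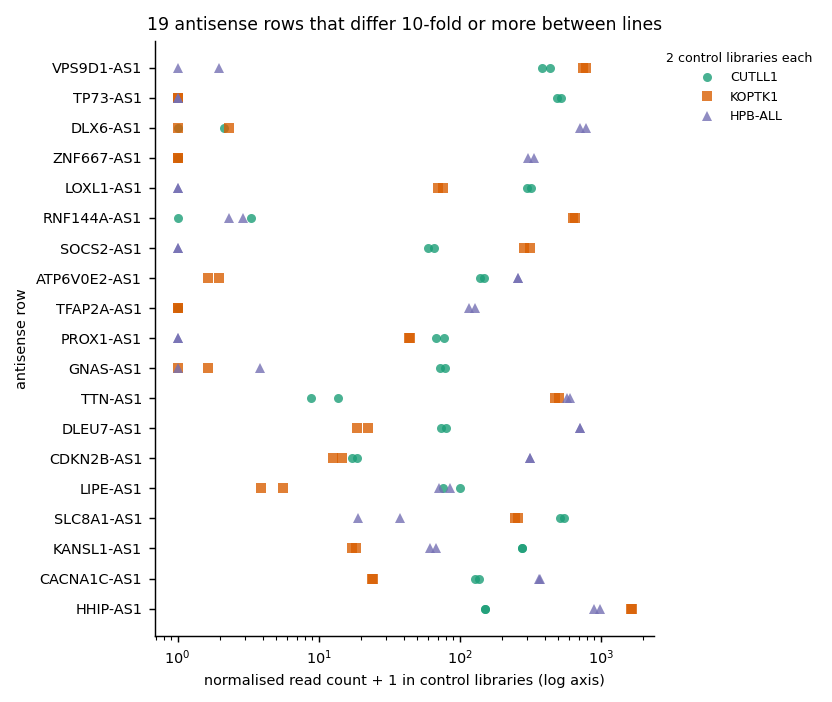
Normalised read count plus 1 (log axis) in the 6 control libraries, 2 of each line, for the 19 antisense rows whose line means were 10-fold or more apart. Several rows have reads in 1 line and sit at or near 1 in the others.

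The third comparison asks whether the effect of the guides differed between the 3 lines. By the F test over 16 libraries, 41 of 180 antisense rows differed (22.8%), against 43.7% of all 14020 genes and 86 of 158 partners. Without the library of HPB-ALL with guide 1, 27 rows differed. The share differed by level. Of the 75 rows with a mean under 100, 7 differed (9.33%, all genes at that level 18.4%), and of the 105 at 100 or more, 34 differed (32.4%, all genes 49.6%). HNRNPU-AS1, beside the gene of a nuclear matrix RNA binding protein, had 1875 and 1864 against 2351 with guides in CUTLL1, 1833 and 2056 against 1709 in KOPTK1 and 1159 and 1246 against 1908 and 1981 in HPB-ALL, targeted against control. It was higher with guides in KOPTK1 and lower in both other lines (F test adjusted p 0.000106). The rise in KOPTK1 (0.18, adjusted p 0.0433 by limma) rests on a lone control, and with ASOs the row fell there, with 1677 and 1769 against 1997 (-0.21, adjusted p 0.023 by limma). RPA3-AS1 had 1719 and 1649 against 1155 in CUTLL1, 1527 and 1674 against 1186 in KOPTK1 and 1494 and 1586 against 1722 and 1700 in HPB-ALL. It was higher in the first pair of lines and lower in HPB-ALL (F test adjusted p 0.000171). TMCC1-AS1, beside an endoplasmic reticulum membrane protein gene, had 155 and 159 against 281 in CUTLL1, 138 and 109 against 139 in KOPTK1 and 161 and 158 against 457 and 490 in HPB-ALL. The fall was deepest in HPB-ALL (F test adjusted p 0.00072).

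The fourth comparison sets guides against ASOs, whose controls are labelled as separate libraries. As given above, libraries of the 2 agents in the same line, controls included, lay about as close as replicates of 1 group. Whether they are independent samples of 2 agents was not tested, and the likeness of the agents below, as well as the joint p-values, rest on the labels in this. With guides 49 rows rose and 70 fell of 179 tested (67.7% of all genes were called, 32.7% up and 35.0% down). With ASOs 51 rose and 62 fell of 172 tested (65.0% of all genes, 31.8% up and 33.2% down). With quantile scaling these splits were 67 up and 49 down, and 62 up and 39 down. That scaling also moved the median log2 fold change of all genes, to 0.075 with guides and 0.073 with ASOs. The shares of all genes called with it were not counted. The counts that follow are without it. In the same direction in both, 42 were called up and 58 down (28.6% and 29.6% of all genes tested in both), and 0 were called in opposite directions. These 100 are 85.5% of the 117 called with guides and 88.5% of the 113 called with ASOs, among rows tested in both. Across the 171 rows tested in both, as a description, the changes had Pearson's r 0.96 and Spearman's rho 0.95 and the same sign in 159. Of 151 pairs tested in both, 27 were opposite and 29 the same in both, and 0 switched. Single experiments called 96 of 172 rows in CUTLL1 with guides (64.7% of all genes), 102 of 159 in KOPTK1 (67.3%) and 107 of 167 in HPB-ALL (74.5%). With ASOs they called 96 of 169 in CUTLL1 (64.3% of all genes) and 94 of 152 in KOPTK1 (66.6%).

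The difference between the agents, tested as such in limma, called 0 of 180 antisense rows and 0 of 14020 genes (0.0%). At an unadjusted p under 0.05 there were 10 and 1393, and no other tool was run on this contrast. The rows with the smallest p were HNRNPU-AS1 (guides minus ASOs 0.24), SRRM2-AS1 (-0.68), DNAJC3-AS1 (0.53) and THAP9-AS1 (0.14), each with an adjusted p of 0.496. SRRM2-AS1, beside a splicing factor gene, had 117 and 120 against 109 with guides and 129 and 107 against 64.5 with ASOs in CUTLL1, targeted against control. Its targeted values were close, and the lone controls differed. DNAJC3-AS1, beside a chaperone gene of the endoplasmic reticulum, had 141 and 138 against 117 and 133 and 121 against 155, with the same arrangement.

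The RefSeq promoter table (GRCh38.p14) matched 114 of the 180 antisense rows, 27 of them through a synonym, and 105 partners. Both promoters were found for 69 pairs, all 69 on opposite strands, 29 of them head to head. In 24 pairs the 300-base windows overlapped, with starts 46 to 425 bases apart, and RefSeq names 13 of these antisense genes as divergent transcripts (-DT). Every class of call occurred among them. Of these 24, 5 moved in the same direction, 9 in opposite directions, 4 with the antisense alone, 4 with the sense alone and 2 with neither. Of 36 pairs whose windows did not overlap and whose sense row averaged 20 or more, 11 moved in the same direction, 10 in opposite directions, 7 with the antisense alone, 6 with the sense alone and 2 with neither. As a description, Pearson's r between antisense and sense changes was 0.11 in the first set and 0.40 in the second, and the median size of the difference was 0.74 and 0.58. The difference between the sets was not tested.

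The pairs printed at the start belong to the overlapping set. TRIM52-AS1, beside a ubiquitin ligase gene, had 102 to 289 in targeted and 254 to 615 in control libraries, and TRIM52 had 665 to 1320 and 494 to 972. The difference of their changes was -1.66 (SD 0.152 over the 5 experiments, exact p 0.00206), with starts 69 bases apart. UBA6, an enzyme that activates ubiquitin, rose with 0.44 (SE 0.054, adjusted p 4.32e-06), and UBA6-AS1 fell with -0.92 (SE 0.061, adjusted p 6.03e-09). SSSCA1-AS1 rose with 0.97 (SE 0.141, adjusted p 2.27e-05), and SSSCA1 fell with -0.32 (SE 0.038, adjusted p 3.18e-06). TRIM52, UBA6 and SSSCA1 are named for their shared window and difference, after their values were seen.

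The promoters of the antisense rows were rich in CpG, with a median of 27 CpG in 300 bases and 66.4% GC, against 14 and 58.7% over all 35116 promoters in the table. The GC box GGGCGG, on either strand, stood in 67.5% of the 114 and in 45.0% of all promoters. The ETS motif CCGGAAG stood in 21.1% against 10.3%, the E-box CACGTG in 7.89% against 7.26%, and the TATA box TATAAA in 4.39% against 11.5%. Among rows called up, 10 of 38 promoters held CCGGAAG and 27 held GGGCGG, and among rows called down, 6 of 49 and 30. The 114 belong to rows chosen for having reads in these lines, while the 35116 were not chosen by expression. Promoters of the sense partners or of other expressed genes were not counted. These shares are therefore not shown to be a trait of antisense rows. A GC box can overlap another GC box, and a match is no evidence that a factor binds there.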

How the data were processed

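RNA of 16 libraries was measured by RNA-seq with a directional kit, per the labels. The authors deposited 1 table of 57820 genes, whose unit is a signal, namely reads per gene after normalisation. The tools STAR 1.4.2 and DESeq2 and the build hg19 stand in the list per the submitters' processing notes, with no role stated. Counter, annotation and use of strand in counting: not given in the sources used here. In all 16 libraries 100% of values were whole multiples (tolerance 1e-06) of 1 step. Recovered whole reads of 15 libraries entered the count tests. CUTLL1 with ASO 1 was left out of them though its values passed the same check, and the reason is not given in the sources used here. Recovered totals of 34547469 to 72178929 reads limit the precision of rows near the mean of 20.

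Tests used limma 3.58.1 in R 4.3.3 on log2(normalised count + 1), with moderation and an intensity trend, over genes averaging 20 or more in the fit, with Benjamini-Hochberg adjustment over all of them and a threshold of 0.05. This scale understates the fold change of low rows. The joint fit held experiment as a term, the guide and ASO fits cell line. The single experiments, the F test between lines and guides minus ASOs came from 10 group means, where a lone control was assumed to vary like the other groups. Single experiments were further limited to genes averaging 20 in that experiment, a change made after false calls were seen on simulated counts. Pairs were tested by exact permutation over libraries, two-sided and unadjusted. The numbers 1 and 2 stand for guides or ASOs in the titles and for replicates in the descriptions. Either way the libraries served as replicates of a condition, and the p-values rest on that. Values are printed to 3 significant digits.

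The members, role lists, tests and naming rule were chosen with earlier results of these data known. The naming rule took the 8 largest rises and falls, the 6 highest means, the rows beside the threshold, the 4 smallest p between lines and between agents, the T-lineage pairs, and the most opposite, most alike, steadiest and widest pairs. Alternatives were a pseudocount of 5, other filters (none, or a mean of 100), other scalings, the replicate number as a block, leaving out each library, and edgeR 4.0.16 and DESeq2 1.42.0 on recovered reads. RefSeq promoters are on GRCh38.p14, another build than the deposited table, and were matched by symbol.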

Additional observations from a re-analysis of the deposited data

Results flagged for a closer look

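Effects of the guides that differed between the lines, by the F test in limma over 16 libraries, are given for the 15 named antisense rows that passed it. Log2 fold changes are given for CUTLL1, KOPTK1 and HPB-ALL in that order, and the p-values are adjusted over all 14020 genes.

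In the 7 rows listed first, the lines shared a direction and differed in size. JHDM1D-AS1 rose by 2.37, 1.42 and 1.48 (adjusted p 0.0453), INTS6-AS1 by 1.23, 1.58 and 0.67 (0.0499), RAP2C-AS1 by 2.11, 2.22 and 0.63 (0.0043) and TMPO-AS1 by 0.72, 0.46 and 0.59 (0.0297). C1RL-AS1 gave -2.12, -2.16 and -1.42 (0.00543), and CD27-AS1 gave -1.30, -0.71 and -0.82 (0.0226). DNAJC3-AS1 gave 0.25, 1.03 and 0.05 (0.0116), of which the value in KOPTK1 was called.

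The lines shared a direction in TNRC6C-AS1, TMCC1-AS1 and ZEB1-AS1 as well. The change was -0.41, -3.03 and -1.33 (adjusted p 0.000548) in TNRC6C-AS1, -0.84, -0.17 and -1.56 (0.00072) in TMCC1-AS1, and -0.06, -0.26 and -0.66 (0.00137) in ZEB1-AS1. Each of these was called in HPB-ALL, and each failed the test in 1 other line. HNRNPU-AS1, with -0.33, 0.18 and -0.69 (0.000106), and RPA3-AS1, with 0.54, 0.43 and -0.15 (0.000171), were called in every line and in both directions. THAP9-AS1 gave 0.07, 0.38 and -0.06 (0.000858), with the value in KOPTK1 called. With ASOs in KOPTK1 HNRNPU-AS1 gave -0.21, opposite to the guides. CDKN2B-AS1 (0.00124) had 23 and 30.3 against 17.6 in CUTLL1, 2.46 and 1.15 against 13.6 in KOPTK1, and 289 and 295 against 315 and 316 in HPB-ALL, targeted against control, so few reads stand behind the values of CUTLL1 and KOPTK1. VPS9D1-AS1 (0.0173) averaged under 20 in HPB-ALL. Groups held 1 or 2 libraries, too few to look for a library far from the others within a group.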

How the results depend on the processing

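Of the counts of calls, 8 moved by more than 1.5 times. With a mean of 100 or more, fewer rows were tested, and 47 rows fell jointly, 46 with guides and 40 with ASOs, 58 were called in KOPTK1 and 67 in HPB-ALL with guides, and 67 of 85 pairs had an exact p under 0.05. With quantile scaling 39 rows fell with ASOs, and the median of all genes moved to 0.07 jointly and 0.08 with guides, against -0.03 in both before; the cause was not tested. Without the library of HPB-ALL with guide 1, 27 rows differed between lines. Leaving out 1 library at a time gave 54 to 59 up and 75 to 79 down jointly, 46 to 51 and 64 to 70 with guides, 40 to 48 and 50 to 54 with ASOs, 27 to 41 for the difference between lines, 0 to 0 for guides minus ASOs and 110 to 121 pairs. In single experiments it gave 85 to 99 (CUTLL1 guides), 92 to 103 (KOPTK1 guides), 93 to 113 (HPB-ALL guides), 84 to 98 (CUTLL1 ASOs) and 87 to 95 (KOPTK1 ASOs). On recovered reads edgeR called 59 up and 80 down jointly and DESeq2 55 and 79. Over the 47 named rows, 2 changed sign with quantile scaling, ZNRD1-AS1 (0.012), which lost its call, and ZSCAN16-AS1 (0.208), which gained one. Apart from these, calls were lost in 4 settings and gained in 16, and 1132 kept direction and side of the threshold.

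Targeted libraries with the same number in 2 groups did not deviate together (correlations from -0.014 to 0.065 over 10 pairs of groups). Each targeted group held 2 libraries and the controls were not examined, so this check cannot exclude that the numbers pair the samples. With the replicate number as a block, 57 rows rose and 75 fell jointly, 48 and 66 with guides, and 38 and 44 with ASOs. Depth limits the rows with means of 20 to 100, of which several have a few reads per library.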

Other observations

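Other antisense and intronic rows, with suffixes of -AS and a higher number, -IT or -OT, could be tested in 14 of 252 cases. Jointly 1 rose and 7 fell, with a median log2 fold change of -0.23, against 36.2% up and 38.8% down of all genes.

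The pairs of HHIP, LOXL1, SOCS2 and PROX1, whose levels differ widely between the lines, were picked after the values were seen. HHIP encodes a decoy receptor of Hedgehog ligands. HHIP-AS1 had 54.3 and 62.5 with guides in CUTLL1 against 149 in the control, 847 and 808 against 1626 in KOPTK1, and 413 and 388 against 979 and 889 in HPB-ALL. Every targeted value was below its controls, with a joint log2 fold change of -1.12 (SE 0.064, adjusted p 1.5e-09 by limma), and HHIP gave -1.67 (SE 0.079, adjusted p 2.09e-10). LOXL1 encodes an enzyme that cross-links elastin. LOXL1-AS1 had 85.6 and 49.3 against 299 in CUTLL1 and 20.9 and 18.4 against 74.6 in KOPTK1 with guides, and 0 in all HPB-ALL libraries. The joint change, which takes in HPB-ALL with no reads of this row, was -1.45 (SE 0.28, adjusted p 0.000311). With ASOs, in CUTLL1 and KOPTK1 alone, it was -1.95. The joint change of LOXL1 was -1.11 (SE 0.226, adjusted p 0.000507).

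SOCS2 encodes a suppressor of cytokine signalling. SOCS2-AS1 had 12.9 and 17.1 with guides against 64.4 in the CUTLL1 control, and 294 and 278 against 313 in KOPTK1, and 0 in all HPB-ALL libraries. The guide effects of the lines differed by limma's F test (adjusted p 0.001). The joint change of SOCS2-AS1, which takes in HPB-ALL with no reads, was -0.63 (SE 0.247, adjusted p 0.0318). That of SOCS2 was -0.89 (SE 0.264, adjusted p 0.0073). PROX1 encodes a homeobox factor of lymphatic endothelium. PROX1-AS1 had 32.2 and 37.9 with guides against 76.1 in the CUTLL1 control, while PROX1 had 448 and 475 against 258. Jointly PROX1-AS1 gave -0.75 (SE 0.202, adjusted p 0.00419) and PROX1 gave 0.77 (SE 0.226, adjusted p 0.00685), a further pair with opposite calls.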
